A study of Arabidopsis thaliana with 8 samples.

Results

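The expansins of Arabidopsis form a superfamily with 4 subfamilies, the alpha-expansins (EXPA), the beta-expansins (EXPB) and the expansin-like A and B genes (EXLA and EXLB). A list of 35 loci was used, with 25 EXPA, 6 EXPB, 3 EXLA genes and 1 EXLB gene, and the array's probes were matched to it by accession. All 35 had a probe, 46 probes in all, out of 26704 loci with a probe on the array. The list holds no EXPA19.

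Expansins are secreted proteins that let the plant cell wall slip and extend at acid pH without cutting its polymers. Loosening activity is known for alpha- and beta-expansins, whereas expansin-like proteins are recognised mainly by their sequence. Growth by expansins goes together with plasma membrane proton pumps, which acidify the wall, and with xyloglucan endotransglucosylase/hydrolases (XTH), which cut and rejoin xyloglucan. Brassinosteroids are plant steroid hormones that promote cell elongation, and BZR1 is a transcription factor that acts at the end of their signalling pathway.

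Transcripts were measured in whole 14-day seedlings on 8 single-colour Agilent arrays. In 4 of them the seedlings carried bil1-1D/bzr1-1D, a dominant gain-of-function allele of BZR1 in the Col-0 background, and were treated for 3 hours with brassinolide, a highly active brassinosteroid, at 1 µM. The other 4 arrays held wild-type Col-0 seedlings treated for 3 hours with the solvent DMSO. Both groups had first spent 14 days on 1 µM brassinazole, an inhibitor of brassinosteroid synthesis, so that the control seedlings were also treated with the inhibitor. The groups are called mutant and wild type below. The mutant and brassinolide were changed together, so that the effect of the allele and that of the hormone cannot be told apart. The array's signal for BZR1 RNA does not test for the mutation. The labels do not say whether the 4 samples of a group were separate cultures, and the p-values measure the spread between these samples only.

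Levels are given as log2 of the processed signal relative to the array's 75th percentile, so a level of 0 equals that percentile. Levels of different probes were compared only to pick the brightest probe of a gene and to sum or average a list. A summed level adds the levels of a list's genes on the linear scale, where the array's 75th percentile equals 1. A change is the mutant mean minus the wild-type mean, ± its standard error from limma, with p-values adjusted over all 22089 tested genes and a threshold of 0.05. The 75th percentile of the processed signal was 3033 to 3821 in the mutant arrays and 4638 to 6153 in the wild-type arrays, and the share of spots flagged as well above background was 74.5% to 75.8% and 79.5% to 80.6%, respectively. All mutant arrays lay on 1 slide and all wild-type arrays on another, scanned separately, so that slide and group cannot be told apart. The scanner software marked 3 arrays for evaluation, mutant replicate 4 and wild-type replicates 1 and 2. Array profiles correlated at 0.990 to 0.996 within a group and at 0.967 to 0.976 between the groups. In RNA from whole seedlings, fewer cells of a type and less RNA per cell cannot be told apart. The leaf genes RBCS1A, LHCB1.1, LHCA1, CA1 and RCA and the root genes PLT1, WOX5, CASP1, PYK10 and SHR were well above background on all 8 arrays.

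More expansins were higher in the brassinolide-treated mutant than were lower. Of the 35 genes, 25 could be tested, and 13 of these (52%) rose, 3 (12%) fell and 9 did not pass the threshold. Over all tested genes 55.9% passed the threshold, 30.2% upward and 25.7% downward. Scaled to the spike-in RNAs instead, which lowers the median change of all genes by 0.12, 8 expansins rose and 3 fell, against 6.35% and 13.6% of all tested genes. At least 2-fold, 5 expansins rose and 3 fell, against 3.07% and 5.02% of all tested genes. The 3 falls were 1 with quantile normalization, median scaling, both forms of normexp or the authors' table, 1 to 3 on leaving out each array in turn (1 without mutant replicate 2 or 3), and 1 of the 3, EXPA16, had a second probe that rose. The median change of the tested expansins was 0.41 on the log2 scale, with a range from -1.19 to 2.88, and the median of all tested genes was 0.03. The mutant and wild-type arrays did not overlap for 14 of the 25, all of them past the threshold. This share is near the 52.2% of all tested genes that did not overlap.

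**Figure D1:**
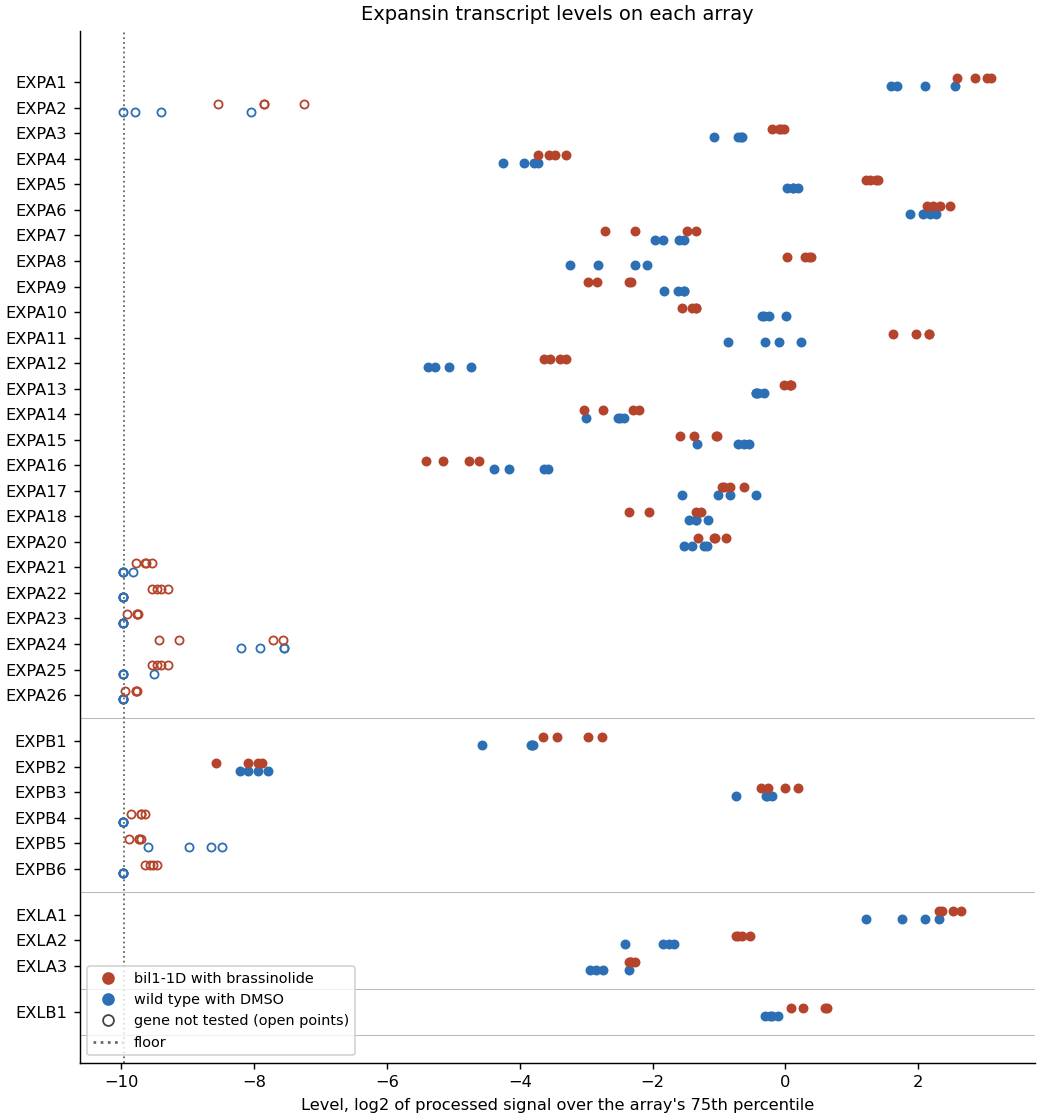
Level of the 35 expansin genes on each array, as log2 of the processed signal over the array's 75th percentile, with 4 red points for the mutant with brassinolide and 4 blue points for wild type with DMSO; open points mark the 10 genes not tested and the dotted line is the floor at -9.97. EXPA8, EXPA11 and EXPA12 show the widest gaps with the mutant higher, EXPA10 lies lower in all mutant arrays, and most untested genes sit near the floor; levels of different genes come from different probes and are not comparable.

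The alpha-expansins changed in both directions and held the largest changes. Of the 18 tested, 8 rose, 3 fell and 7 did not pass, with a median change of 0.22. EXPA8, EXPA11, EXPA12 and EXPA5 rose at least 2-fold, and EXPA10, EXPA16 and EXPA9 fell at least 2-fold on the probe that represents each gene.

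EXPA8 (AT2G40610, chromosome 2), an alpha-expansin, had levels of 0.02, 0.39, 0.35 and 0.30 in mutant replicates 1 to 4 and of -3.25, -2.82, -2.09 and -2.27 in wild-type replicates 1 to 4. All mutant arrays were far above all wild-type arrays, and the wild-type arrays spread more (0.26 ± 0.17 against -2.61 ± 0.53, SD, n = 4 each). The gene rose 7.34-fold (change 2.88 ± 0.24, limma adjusted p = 5.2e-05). It is the only expansin with 3 probes. A second bright probe gave a change of 2.86. The third was dim, with wild-type levels from -9.97, the floor, to -7.66, so no change is given for it.

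EXPA11 (AT1G20190, chromosome 1), also an alpha-expansin, stood at 1.62, 2.16, 1.97 and 2.16 in the mutant and at -0.87, -0.30, 0.24 and -0.09 in wild type. The groups did not overlap, and replicate 1 was the lowest array in both. The rise was 4.70-fold (change 2.23 ± 0.23, limma adjusted p = 1.3e-04).

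EXPA12 (AT3G15370, chromosome 3) had mutant levels of -3.30, -3.54, -3.64 and -3.39 and wild-type levels of -4.74, -5.06, -5.28 and -5.39. Every mutant array exceeded every wild-type array, and the gene rose 3.14-fold (change 1.65 ± 0.14, limma adjusted p = 6.1e-05). EXPA5 (AT3G29030, chromosome 3), which is known for its part in brassinosteroid-regulated growth, had mutant levels of 1.21, 1.28, 1.4 and 1.37 and wild-type levels of 0.12, 0.19, 0.12 and 0.03. Its arrays were tight within both groups (SD 0.09 and 0.06), and the rise of 2.30-fold had the lowest p of the family (change 1.20 ± 0.06, limma adjusted p = 4.5e-06). The second EXPA5 probe rose as well, by 1.05 ± 0.10.

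EXPA10 (AT1G26770, chromosome 1), an alpha-expansin known from the growth of leaves and petioles, had levels of -1.56, -1.34, -1.35 and -1.41 in the mutant and of 0.01, -0.32, -0.24 and -0.35 in wild type. The mutant arrays were all below the wild-type arrays, and the gene fell (change -1.19 ± 0.09, 2.28-fold lower, limma adjusted p = 3.0e-05). Its second probe gave -1.39 ± 0.08. EXPA9 (AT5G02260, chromosome 5) had mutant levels of -2.33, -2.98, -2.84 and -2.36 and wild-type levels of -1.83, -1.61, -1.52 and -1.53. The groups did not overlap, and the fall lay just past 2-fold (change -1.0 ± 0.16, 2.01-fold lower, limma adjusted p = 0.00114).

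EXPA16 (AT3G55500, chromosome 3) gave opposite answers on its 2 probes. The brighter probe, which represents the gene, had mutant levels of -4.77, -5.42, -5.16 and -4.61 and wild-type levels of -3.57, -3.64, -4.39 and -4.17, a fall without overlap (change -1.05 ± 0.24, 2.07-fold lower, limma adjusted p = 0.00661). The dimmer probe had mutant levels of -6.06, -6.23, -5.96 and -5.75 and wild-type levels of -7.02, -6.91, -7.45 and -6.49, a rise without overlap (change 0.97 ± 0.19, limma adjusted p = 0.00349 over the tested probes). The mean of both probes gave -0.04 (limma adjusted p = 0.865), and the gene is counted here among the falls by its brighter probe only. EXPA16 was the only one of 10 expansins with several tested probes that had probes past the threshold in opposite directions, as had 582 of 6627 such genes over the array. With quantile normalization, EXPA9 changed by -0.96 and EXPA16 by -0.93, which left EXPA10 as the only expansin lower by at least 2-fold.

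A further 4 alpha-expansins rose by under 2-fold. EXPA1 (AT1G69530), which is expressed in guard cells and acts in stomatal opening, had levels from 2.59 to 3.1 in the mutant and from 1.59 to 2.56 in wild type, without overlap (change 0.91 ± 0.22, 1.88-fold, limma adjusted p = 0.00864). Its second probe gave 0.42 and did not pass (limma adjusted p = 0.136 over the tested probes), and without the 3 marked arrays the first gave 0.57 (limma adjusted p = 0.093). The guard cell genes MYB60, FAMA, KAT1, GC1, SLAC1 and HT1 split in direction. HT1 rose (0.26 ± 0.05, limma adjusted p = 0.00386) and 3 did not pass. The 2 that fell were KAT1 (-0.57 ± 0.14, limma adjusted p = 0.00932) and SLAC1 (-0.48 ± 0.14, limma adjusted p = 0.0184). Over all tested genes 30.2% rose and 25.7% fell. The HT1 call was lost with spike-in scaling (0.14). That of SLAC1 was lost with quantile normalization (-0.35), both forms of normexp and the authors' table. The summed level of the 6 genes, most of it GC1, was 4.73 to 6.49 in the mutant and 5.09 to 7.82 in wild type. The part of guard cells in the EXPA1 result was not tested.

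EXPA3 (AT2G37640) rose 1.61-fold (change 0.69 ± 0.10, limma adjusted p = 6.5e-04), from levels between -1.07 and -0.66 in wild type to levels between -0.20 and -0.02, and its second probe gave 0.67. EXPA13 (AT3G03220) rose 1.38-fold with little spread in either group (change 0.46 ± 0.05, SD 0.05 and 0.06, limma adjusted p = 1.5e-04). EXPA4 (AT2G39700) rose 1.33-fold, and its groups overlapped (change 0.41 ± 0.13, limma adjusted p = 0.029). Scaled to the spike-in RNAs, EXPA13 gave 0.34 (limma adjusted p = 0.307) and EXPA4 gave 0.29 (limma adjusted p = 0.357). The EXPA4 call was also lost on leaving out mutant replicate 1, 2 or 3 or wild-type replicate 4 (limma adjusted p up to 0.0755).

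**Figure D2:**
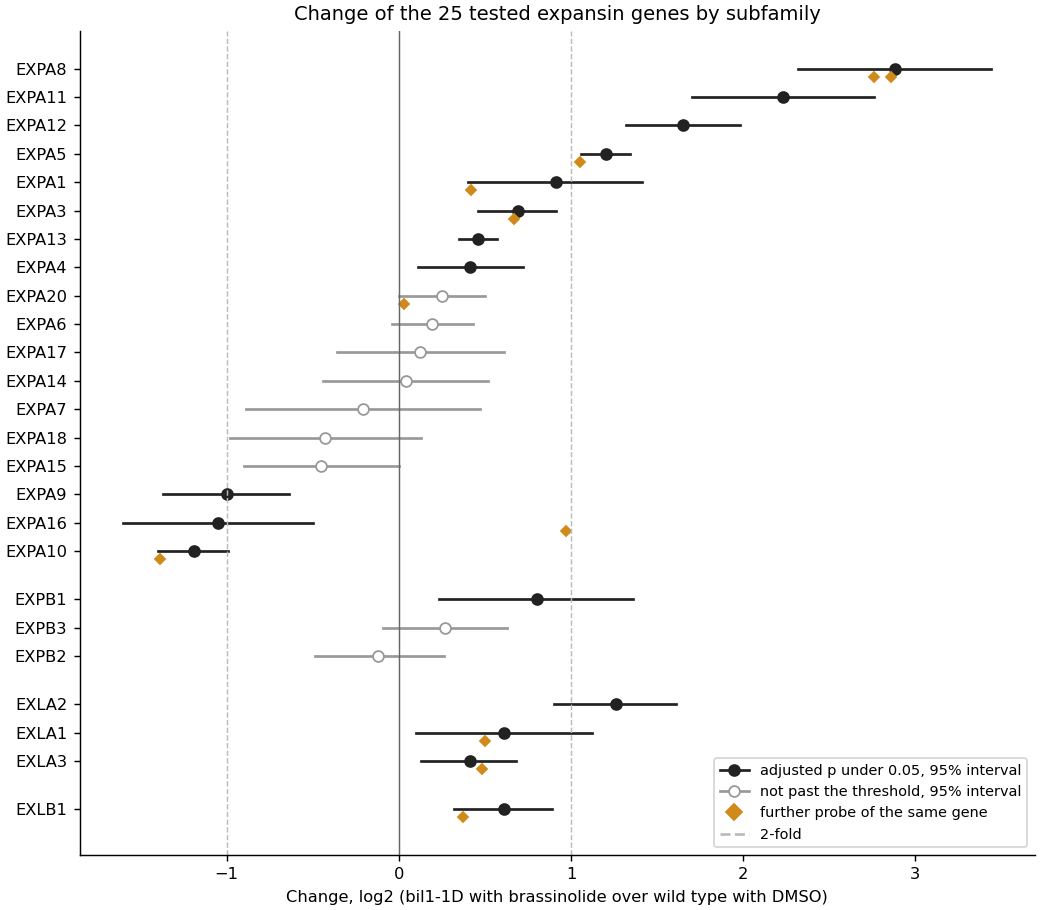
Change of the 25 tested expansin genes on the log2 scale (mutant with brassinolide over wild type with DMSO), by subfamily; circles show the representing probe with its 95% interval, filled where the limma adjusted p is under 0.05, diamonds show further probes of the same gene, and dashed lines mark 2-fold. EXPA8 reaches 2.88 with a further probe at 2.86 (its other diamond is the dim probe with a wild-type array at the floor, drawn at its fitted value), whereas the probes of EXPA16 lie on opposite sides of 0.

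The other 7 tested alpha-expansins did not pass the threshold, with changes from -0.45 to 0.25. EXPA15 had the widest of these (-0.45 ± 0.20, 95% interval -0.90 to 0.00, limma adjusted p = 0.0819), and EXPA20 (0.25 ± 0.11, limma adjusted p = 0.0826) and EXPA6 (0.19 ± 0.10, limma adjusted p = 0.142) were closer to 0. Without wild-type replicate 1, EXPA15 passed the threshold at -0.63 (limma adjusted p = 0.00902). EXPA20 passed it without mutant replicate 3, at 0.33 (limma adjusted p = 0.0306), with median scaling (0.31, limma adjusted p = 0.0379) and in the authors' deposited table (0.28, limma adjusted p = 0.0471). The second EXPA20 probe gave 0.03 (limma adjusted p = 0.908 over the tested probes).

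EXPA14 and EXPA17 are known as targets of the regulator LBD18 in lateral root emergence. EXPA14 gave 0.04 ± 0.21 (95% interval -0.44 to 0.52, limma adjusted p = 0.887), and EXPA17 gave 0.12 ± 0.21 (95% interval -0.36 to 0.61, limma adjusted p = 0.641). LBD18 itself gave 0.32 ± 0.12 (limma adjusted p = 0.0554). Of the 5 lateral root genes listed, 4 were tested and 1 fell, the lateral root initiation factor LBD16 (-2.60 ± 0.24, limma adjusted p = 7.8e-05), which was well above background on 3 of the 4 mutant arrays.

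EXPA7 and EXPA18 are the alpha-expansins of root hairs, the tubular outgrowths of the root epidermis. Their values per array are given because of a pattern seen in the data. EXPA7 had levels of -1.48, -2.71, -2.26 and -1.34 in the mutant and of -1.96, -1.53, -1.60 and -1.84 in wild type. EXPA18 had levels of -1.34, -2.36, -2.05 and -1.27 in the mutant and of -1.45, -1.17, -1.34 and -1.35 in wild type. In both genes mutant replicates 1 and 4 were the high mutant arrays and replicates 2 and 3 the low ones, and the mutant arrays spread much more (SD 0.65 and 0.54) than the wild-type arrays (SD 0.20 and 0.12). Neither passed the threshold: EXPA7 changed by -0.21 ± 0.30 (95% interval -0.89 to 0.47, limma adjusted p = 0.57) and EXPA18 by -0.43 ± 0.24 (95% interval -0.98 to 0.13, limma adjusted p = 0.163).

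All 13 root hair genes listed had the same 2 high mutant arrays as EXPA7 and EXPA18, as had 28.9% of all tested genes. The mean level of 12 of them, without XTH14, was -2.16, -3.17, -2.80 and -2.11 in the mutant and -2.52, -2.18, -2.27 and -2.45 in wild type. Their summed level, on the linear scale, ranged from 2.42 to 5.03 in the mutant and from 3.69 to 4.59 in wild type. All were well above background on all 8 arrays. Of the 13 genes, 1 fell, RHD6, a transcription factor that starts root hair formation (-0.84 ± 0.20, limma adjusted p = 0.00719), none rose, and their median change was -0.20. The shares that fell and rose were 7.69% and 0%, against 25.7% and 30.2% of all tested genes. Among the 25 tested expansins, 11 had mutant replicates 1 and 4 as the 2 highest mutant arrays: EXPA7, EXPA9, EXPA12, EXPA13, EXPA14, EXPA16, EXPA18, EXPB1, EXPB2, EXPB3 and EXLA1. The part of the root hair genes' spread in these results was not tested.

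**Figure D3:**
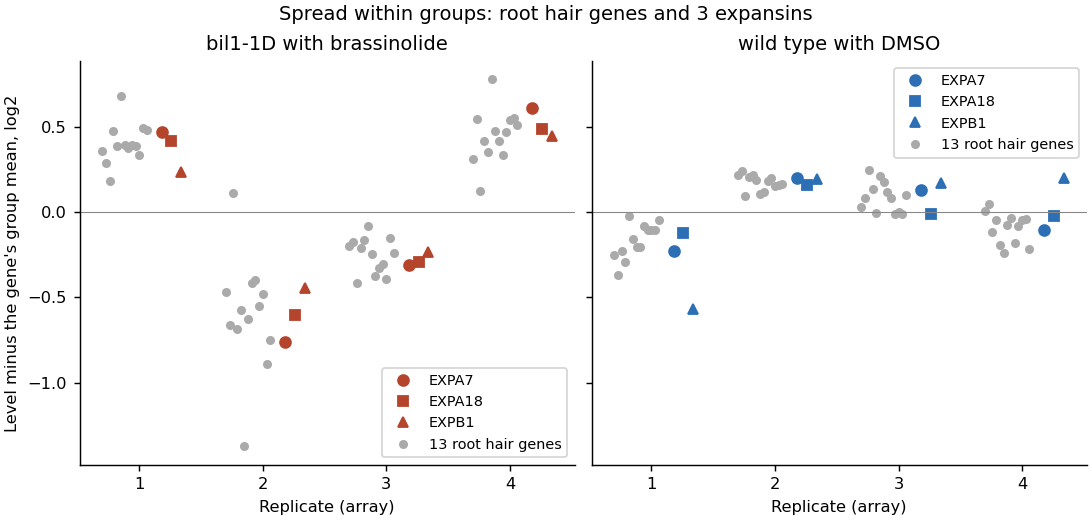
Level of each gene minus its mean over the group's 4 arrays, on the log2 scale, by array, for the 13 root hair genes (grey points) and for EXPA7, EXPA18 and EXPB1 (coloured symbols), with the mutant on the left and wild type on the right. In the mutant panel the 3 expansins and nearly all root hair genes are above 0 in replicates 1 and 4 and below 0 in replicates 2 and 3, while in wild type all but EXPB1 stay within a narrower band.

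The beta-expansins, known in grasses as pollen allergens, were mostly at or near background, and 1 of the 3 tested rose. EXPB1 (AT2G20750) had levels from -3.65 to -2.76 in the mutant and from -4.57 to -3.80 in wild type, without overlap (change 0.80 ± 0.24, 1.74-fold, limma adjusted p = 0.0236). Its call was lost on leaving out mutant replicate 1 or mutant replicate 4, with a limma adjusted p of up to 0.0592, and without the 3 marked arrays (0.46, limma adjusted p = 0.141). EXPB1 shared the order of the mutant arrays described for the root hair genes. EXPB3 (AT4G28250) gave 0.27 ± 0.16 (limma adjusted p = 0.178), with overlapping groups.

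EXPB2 (AT1G65680, chromosome 1) passed the background flag on 4 of 4 wild-type arrays and on 0 of 4 mutant arrays. Its levels were -7.95, -8.58, -8.10 and -7.89 in the mutant and -7.80, -7.95, -8.10 and -8.22 in wild type. The groups overlapped (means -8.13 and -8.02), and neither a change nor a fold is given because the gene entered the test through wild type alone and has only a bound in the mutant. The median change of the 3 tested beta-expansins, with EXPB2 at its fitted value, was 0.27, and over the 2 that were above background on all 8 arrays it was 0.53.

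All 3 EXLA genes and EXLB1, the expansin-like genes, rose. EXLA2 (AT4G38400, chromosome 4) had mutant levels of -0.54, -0.75, -0.66 and -0.71 and wild-type levels of -1.75, -1.68, -2.41 and -1.85. The groups did not overlap, and it rose 2.39-fold (change 1.26 ± 0.15, limma adjusted p = 3.0e-04). Its arrays were closer together in the mutant (SD 0.09) than in wild type (SD 0.33), where replicate 3 was the lowest.

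EXLA1 (AT3G45970) and EXLA3 (AT3G45960) are neighbours on chromosome 3, with 0 genes between them in the RefSeq table (assembly TAIR10.1). EXLA1 had levels from 2.32 to 2.64 in the mutant and from 1.22 to 2.32 in wild type, so that the groups met, and rose 1.53-fold (change 0.61 ± 0.22, limma adjusted p = 0.0448). EXLA3 had levels from -2.35 to -2.27 in the mutant and from -2.95 to -2.35 in wild type, with the nearest arrays equal to 2 decimals, and rose 1.33-fold (change 0.41 ± 0.12, limma adjusted p = 0.0204). In wild type replicate 3 was the lowest array for all 3 EXLA genes. The second probes of EXLA1 and EXLA3 gave 0.50 and 0.48 and did not pass (limma adjusted p = 0.111 and 0.116 over the tested probes). The EXLA1 call was lost on leaving out any mutant replicate or wild-type replicate 4 (limma adjusted p up to 0.1), and the EXLA3 call on leaving out wild-type replicate 4 (0.0559). Scaled to the spike-in RNAs, EXLA1 gave 0.49 (limma adjusted p = 0.227) and EXLA3 gave 0.28 (limma adjusted p = 0.424), and EXLA2 was then the only EXLA gene past the threshold.

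EXLB1 (AT4G17030, chromosome 4) had levels from 0.09 to 0.63 in the mutant and from -0.31 to -0.11 in wild type, without overlap (change 0.61 ± 0.12, 1.52-fold, limma adjusted p = 0.00367). Its second probe gave 0.37 (limma adjusted p = 0.0792 over the tested probes), spike-in scaling gave 0.48 (limma adjusted p = 0.0955), and the arrays that were not marked gave 0.59 (limma adjusted p = 0.0565). Whether the subfamilies differ from each other was not tested. Side by side, the median change was 0.22 over 18 EXPA genes, 0.27 over 3 EXPB genes and 0.61 over 3 EXLA genes. The shares that rose were 44.4%, 33.3% and 100%, against 30.2% of all tested genes. The EXPB share is 1 of 3 genes and near that of all genes. Scaled to the spike-in RNAs, the EXPA median was 0.10 and 1 of the 3 EXLA genes rose, and without wild-type replicate 1 the EXPB median was 0.14. On leaving out each array in turn 1 to 3 EXLA genes rose, with 1 without wild-type replicate 4, and 0 to 1 EXPB genes.

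The 10 expansins that were not tested were well above background on no mutant array. EXPA21, EXPA22, EXPA23, EXPA25, EXPA26, EXPB4 and EXPB6 were well above background on 0 of the 8 arrays. EXPA2, which is known from seed germination, was so on 1 wild-type array, EXPB5 on 2 and EXPA24 on 3. EXPA21 to EXPA26 are 6 consecutive genes on chromosome 5 in the RefSeq table (assembly TAIR10.1), and EXPB6 lies next to EXPB2 on chromosome 1, so that close copies may share signal. The probes' sequences were not used here, and for EXPA7 and EXPA18, which are close relatives, shared signal was not tested either. A low signal in these whole seedlings does not show that a gene is silent in every cell.

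Markers of pollen and seed were above background in part. Of 5 pollen genes, PPME1 and AGP11 were well above background on no array, VGD1 on 1, and AGP6 and HAP2 on all 8. AGP6 rose (0.30 ± 0.09, limma adjusted p = 0.0186), HAP2 gave 0.32 ± 0.14 (limma adjusted p = 0.0906), and the list had a summed level of 0.0801 to 0.0853 in the mutant and 0.0596 to 0.0734 in wild type. Of 4 seed genes, CRA1 was well above background on all 8 arrays and OLE1 on none. The seed storage protein genes CRA1 (0.77 ± 0.16, limma adjusted p = 0.00462) and CRU3 (0.75 ± 0.13, limma adjusted p = 0.00144) rose, and SESA1, which entered the test through wild type alone (above background on 4 wild-type and 0 mutant arrays), had a bound of at least 3.58-fold lower (means -8.45 against -5.66, limma adjusted p = 0.00723). Their summed level was 0.0211 to 0.0251 in the mutant and 0.0196 to 0.0471 in wild type. Of the 5 root genes PYK10, WOX5 and PLT1 fell, with PLT1, a regulator of the root stem cell niche, the furthest (-1.03 ± 0.09, limma adjusted p = 7.4e-05). CASP1 (0.45 ± 0.24) and SHR (0.18 ± 0.08) did not pass. The WOX5 fall was small (-0.22 ± 0.05). Its call was lost with quantile normalization (-0.11), spike-in scaling (-0.35), both forms of normexp, the authors' table (-0.09) and another limma setting. It was kept with median scaling (-0.17). The PYK10 call was lost with spike-in scaling (-0.55). The summed level of the 5 root genes, most of it PYK10, was 25.7 to 30.0 in the mutant and 31.9 to 39.5 in wild type. Their mean log2 level overlapped, at -1.53 to -1.19 in the mutant and -1.33 to -1.04 in wild type. Of the 5 leaf genes RBCS1A rose (0.18 ± 0.06, limma adjusted p = 0.0247), with its direction turned under quantile normalization (-0.01), and 2 fell, LHCB1.1 the further (-0.46 ± 0.07, limma adjusted p = 8.9e-04). Their summed level was 305 to 339 and 297 to 364. For comparison, 30.2% of all tested genes rose and 25.7% fell, and each of these lists holds few tested genes. The part of these lists in the expansin changes was not tested.

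The wall genes that act beside expansins moved in different ways. Of 33 XTH genes, 30 were tested, and 12 rose, 7 fell and 11 did not pass, with a median change of 0.12. These shares were 40% and 23.3%, against 30.2% and 25.7% of all tested genes, so the share that fell was near that of all genes. With spike-in scaling, and without the 3 marked arrays, 3 XTH genes fell. At least 2-fold, 6 of the 30 rose and 1 fell, against 3.07% and 5.02% of all tested genes. The 1 fall among 30 genes is near the latter share. XTH19 rose 9.15-fold (3.19 ± 0.12, limma adjusted p = 1.3e-06) and XTH8 3.95-fold (1.98 ± 0.10, limma adjusted p = 4.5e-06), and XTH24 fell (-1.38 ± 0.17, limma adjusted p = 3.3e-04).

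Of 11 plasma membrane proton pump genes (AHA), 10 were tested, none rose and 3 fell, with a median change of -0.26. The 30% that fell was near the 25.7% of all tested genes, and 30.2% of all tested genes rose. A pump gene rose (1 of 10) with quantile normalization, normexp with an offset or the authors' table. AHA5 fell the furthest (-0.78 ± 0.06, limma adjusted p = 3.9e-05). AHA1, a main pump of the plant, fell too (-0.69 ± 0.05, limma adjusted p = 3.5e-05), as did AHA3 (-0.27 ± 0.06, limma adjusted p = 0.00563). AHA2, the other main pump, gave 0.01 ± 0.05 (95% interval -0.12 to 0.14, limma adjusted p = 0.903). AHA1, AHA2 and AHA3 were named after their values were seen.

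**Figure D4:**
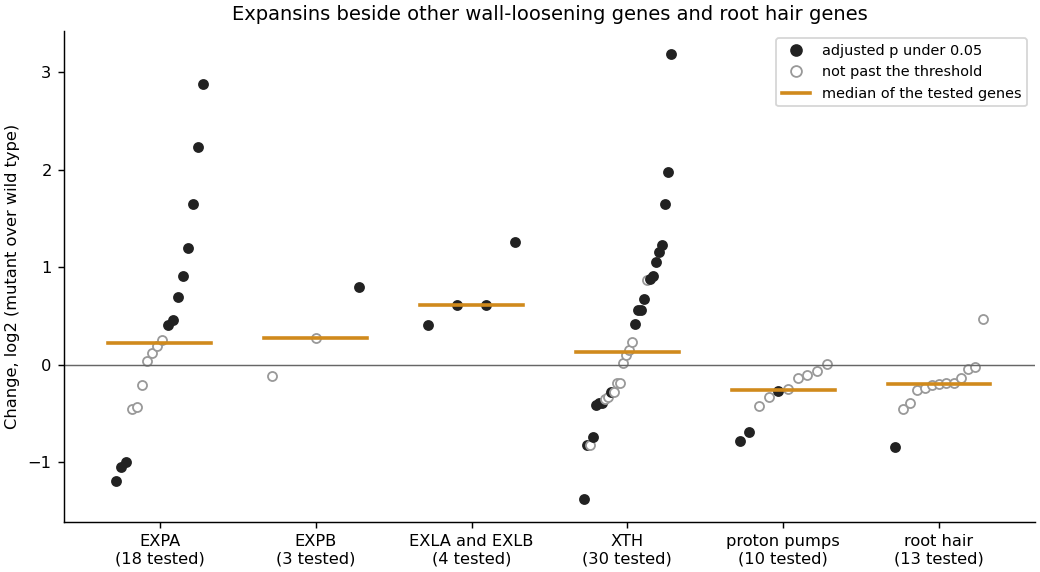
Change on the log2 scale (mutant over wild type) of every tested gene of the EXPA, EXPB, EXLA with EXLB, XTH, proton pump and root hair lists; each point is a gene, filled where the limma adjusted p is under 0.05, and bars mark the median of the tested genes. EXPA genes span -1.19 to 2.88 around a median of 0.22, and no proton pump gene that passed the threshold lies above 0.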

How the data were processed

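The 8 scanner files, as deposited by the authors, give spot intensity on a linear scale. Per the file headers the processed signal is background-subtracted and detrended, not normalized between arrays, and comes from Agilent Feature Extraction 11.5.1.1 on array design 021169. Version 9.1.3.1 is given in the submitters' processing notes. The authors' deposited value table is taken here to be on a natural log scale, because regressing it on natural-log processed signals gave slopes of 0.971 to 1.01. Each of its columns has a median of -0.970, its centring is unknown, and it served only as an alternative.

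Of 43803 spots per array that are not controls, 93 outlier spots over all arrays were left out, and 0 were saturated. Spots of a probe were averaged (43603 probes), each array was scaled by its 75th percentile, values below 0.001 of that percentile were raised to that floor, and log2 was taken. Accessions matched 36145 probes to 1 locus each. Testing required the well-above-background flag on every array of 1 group or both, and the brightest such probe stood for its gene. Groups came from the labels. The comparison used R 4.3.3 and its package limma 3.58.1, with Benjamini-Hochberg adjustment. The fit was tested on simulated data. Python 3.11.15 did the rest. The number of arrays, 4 per group, limits the precision.

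All 35 expansins were to be named. Values per array were to be given for those that changed at least 2-fold and those well above background on all arrays of 1 group and none of the other. From other lists, the 2 largest rises, the largest fall and every root hair gene past the threshold were to be named. The members and lists were chosen with earlier results of these data known. Deviations of same-numbered replicates correlated at -0.101, -0.278, 0.173 and 0.0421 between the groups, and those of different-numbered replicates at -0.094 to 0.252. No pairing by number was seen, although such weak correlations cannot show that the samples were unpaired.

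Alternatives were quantile normalization, median scaling, scaling to the 8 spike-in probes, both forms of normexp background correction (one with an offset of 50), the authors' table, other filters, other probe rules, other limma settings, a replicate block, leaving out each array and leaving out the 3 marked arrays. A block for slide or scan could not be fitted, because each holds 1 group.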

Additional observations from a re-analysis of the deposited data

Results flagged for a closer look

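In 5 of 50 groups of 4 arrays, 1 array stood far from the other 3 for an expansin gene. Chance gives about 1 in 20 such groups (5%). Wild-type replicate 1 was the lowest in 4 of them. Its level was -1.07 for EXPA3, where the other wild-type arrays lay between -0.72 and -0.66, and -3.00 for EXPA14, with the others between -2.52 and -2.43. For EXPB1 it was -4.57, with the others between -3.83 and -3.80, and for EXPB3 -0.75, with the others between -0.29 and -0.20. This array is among the 3 marked for evaluation. Over the 25 tested expansins, wild-type replicate 1 was the lowest wild-type array for 13. The fifth was EXPA13 in mutant replicate 2, at -0.02, with the other mutant arrays between 0.07 and 0.09.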

How the results depend on the processing

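Of 16 expansin calls, 8 were kept in all 22 alternatives: EXPA3, EXPA5, EXPA8, EXPA9, EXPA10, EXPA11, EXPA12 and EXLA2. Expansins called higher numbered 8 in place of 13 with spike-in scaling and 20 without the filter on dim probes. Without it all 7 members on no array passed, with changes of 0.15 to 0.54. In wild type these 7 lay at or near the floor of -9.97, so their changes are not read as rises. XTH3, also on no array, had means of -9.43 in the mutant and -9.97 in wild type. EXPA2 also passed without the filter (1.43, limma adjusted p = 0.0296), and EXLA1 did not (limma adjusted p = 0.0521). EXPA2 was well above background on no mutant array, so its value is not read as a rise. EXPA genes called higher without the filter numbered 14 in place of 8, and EXPB genes higher 3 and lower 1. The latter was EXPB5 (-0.84), also well above background on no mutant array. Expansins lower by 2-fold numbered 1 in place of 3 with quantile normalization, median scaling, both forms of normexp and the authors' table. The median change of the expansins was 0.46 in place of 0.41 with quantile normalization, with median scaling and without the 3 marked arrays, and 0.28 with spike-in scaling and without the filter. The EXPA median was 0.10 with spike-in scaling and 0.35 without the marked arrays, the EXLA median 0.95 without the marked arrays, and the EXPB median 0.53 over genes well above background on all 8 arrays. EXPB genes called higher numbered 2 with normexp on negative-control spots and 0 without the marked arrays. EXLA genes higher numbered 1 with spike-in scaling and with the dimmest tested probe, a choice made after seeing the data. XTH genes lower numbered 3 in place of 7 with spike-in scaling and without the marked arrays. Proton pump genes higher numbered 1 in place of 0 with quantile normalization, normexp with an offset and the authors' table, and root hair genes higher 1 with that normexp.

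Leaving out each array in turn gave 10 to 13 expansins higher and 3 to 4 lower, 1 to 3 lower by 2-fold, a median of 0.30 to 0.46, an EXLA median of 0.40 to 0.77, 1 to 3 EXLA and 0 to 1 EXPB genes higher, and 0 to 1 root hair genes higher and 1 to 2 lower. EXLA1 lost its call when any of 5 arrays was left out and EXLA3 when 1 was (highest adjusted p 0.1 and 0.0559).

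The direction of EXPA16 turned with the dimmest tested probe (0.97). That of RBCS1A turned with quantile normalization (-0.01), normexp with an offset (-0.03), the authors' table (-0.02) and the dimmest probe (-0.23). The fitted value of EXPB2 was 0.27 with normexp on negative-control spots, and EXPB2 is among the EXPB genes called higher there. This value is not read as a rise, because EXPB2 was well above background on no mutant array. With the replicate block 0 EXPB genes were called higher, because EXPB1 gave 0.80 (adjusted p = 0.0538), and EXPA6 passed (0.19, adjusted p = 0.0241). No pairing of the samples by replicate number was seen. The cause of these differences was not tested. Signal near background limits the 10 untested genes and EXPB2.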
